A study of Mus musculus with 6 samples.

Results

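The genes described here are 10 genes of the pathway that turns peptide precursors into secreted neuropeptides, taken from the count table by their symbols: Pcsk1, Pcsk2, Cpe, Pam, Scg2, Scg3, Scg5, Chga, Chgb and Resp18. All 10 were found among the 19954 genes of the table. They were followed across 6 major cell types and 38 neuron subtypes of the mouse lumbar spinal cord, and between cords with and without electrical stimulation. The 6 samples are nuclei of wild-type C57BL/6 mice in which a severe bruise of the thoracic cord had abolished movement of both legs. The TESS group (3 samples) received epidural electrical stimulation of the cord during 30 min on a treadmill. The CON group (3 samples, labelled paralyzed) was placed on the treadmill for as long without it. The study text says that TESS let these mice walk when agonists of the 5-HT1a serotonin receptor and the D1 dopamine receptor were on board. It does not say plainly whether the CON mice also had them. Injury, strain and genotype are therefore shared by both groups. Lumbar cord is the labelled source, although the protocol mentions dissecting at the level of the thoracic injury, and whether samples stand for separate mice is not stated. P-values then measure only the spread between these samples, which may be technical.

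Neuropeptides are made as long precursors that enter the regulated secretory pathway. Prohormone convertases cut the precursors after pairs of basic residues, a carboxypeptidase trims the exposed basic residues, and an amidating enzyme finishes many of the peptides. Granins, acidic proteins that aggregate in the trans-Golgi network, take part in forming the dense-core granules in which this happens. In the spinal cord the pathway serves mainly the dorsal horn neurons that release substance P, neurotensin, dynorphin, somatostatin and other peptides.

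The table holds 18514 nuclei, of which 6035 are neurons by the authors' annotation. TESS samples had 1582104 to 2891177 unique molecular identifiers (UMIs, 1 per captured RNA molecule), against 3365530 to 4037976 in CON samples. Within neurons the totals were 984411 to 1805760 UMIs in TESS samples and 2139502 to 2602108 in CON samples, so TESS values rest on fewer molecules. Levels are counts per 1e+06 UMIs of the nuclei in question (CPM), and they are not corrected for transcript length, so levels of different genes are not ranked against each other. TESS 1, CON 1 and CON 2 carry batch number 3, and each of the other samples is alone in its batch, so batch and group can be separated only inside batch 3. Libraries shared 7 to 20 cell barcodes per pair. Markers fitted the neuron label: the 5 listed neuron markers summed to 16687 to 19496 CPM in TESS neurons and 16070 to 23180 CPM in CON neurons. The 5 oligodendrocyte markers summed to at most 814 CPM in TESS neurons and 735 CPM in CON neurons. Of the 6 markers listed for sensory ganglion and neuroendocrine cells, other peptide-secreting types, 4 are in the table, and these summed to 1.02 to 7.20 CPM in TESS neurons against 3.84 to 8.11 CPM in CON neurons.

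The main comparison asked whether transcripts of the pathway differed in neurons after stimulated walking. Pcsk1, which encodes the prohormone convertase PC1/3, was higher in TESS neurons, and Resp18, which encodes a small granule protein with homology to the receptor-type phosphatase Ptprn, was lower in TESS. The other 8 genes did not pass the test. That made 2 of 10 genes called, 1 in each direction, where 1.04% of the 11686 genes tested in neurons were called. A call is an adjusted p below 0.05 in edgeR's quasi-likelihood test on counts summed per sample, with Benjamini-Hochberg adjustment over all genes tested.

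**Figure D1:**
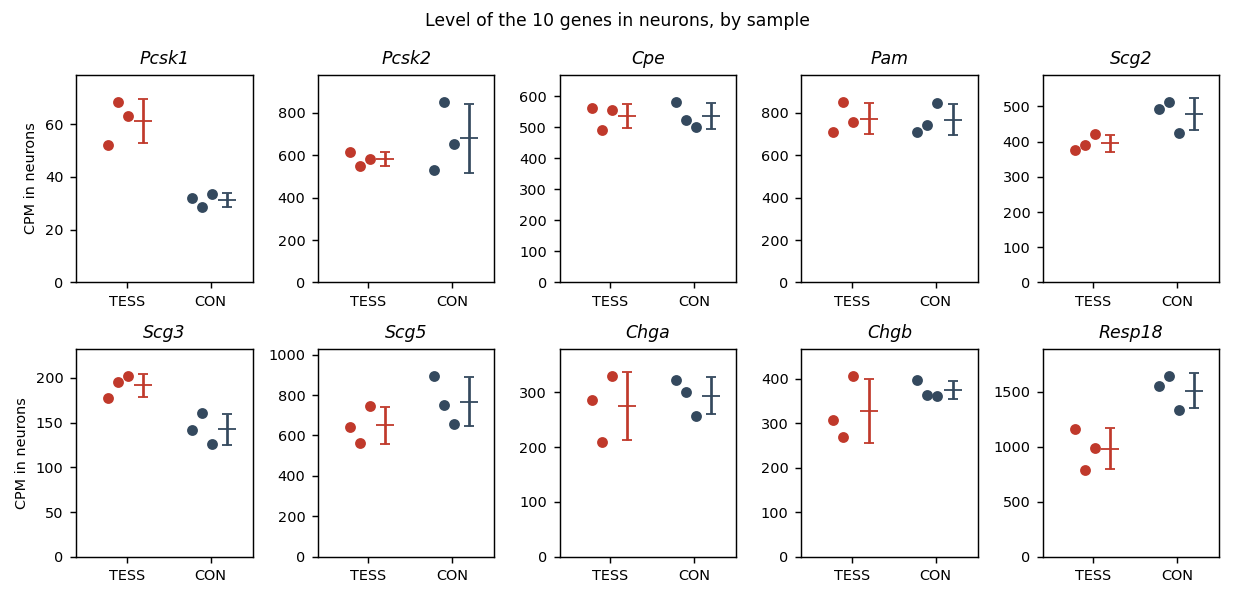
Level of the 10 genes in neurons, in CPM on axes that start at 0. Each point is a sample, and the bar beside each group is its mean and SD (n = 3). The TESS samples lie wholly above the CON samples for Pcsk1 and Scg3 and wholly below them for Scg2 and Resp18, and the groups overlap for the other 6 genes.

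Of the convertases, Pcsk1 had 52.1, 68.6 and 63.0 CPM in TESS neurons, against 32.04, 28.4 and 33.7 CPM in CON neurons. Every TESS sample was above every CON sample, although the counts behind these levels were low, 266 UMIs in TESS neurons and 229 in CON neurons. Pcsk1 averaged 61.2 ± 8.40 CPM in TESS neurons and 31.4 ± 2.67 CPM in CON neurons (SD, n = 3 each), and it rose by 0.94 ± 0.17 (log2 fold change ± SE; edgeR adjusted p = 0.0150). Pcsk2 encodes PC2, the convertase that processes many brain peptides to their final form. It had 617, 549 and 583 CPM in TESS neurons, against 531, 852 and 653 CPM in CON neurons, and the groups overlapped, with CON 2 above all other samples and CON 1 below all. The fitted difference was -0.25 ± 0.14 (edgeR adjusted p = 0.434). Pcsk1 counts per 100 Pcsk2 UMIs were 8.44, 12.5 and 10.8 in TESS neurons and 6.04, 3.34 and 5.15 in CON neurons, groups that did not overlap. The ratio rests on the same Pcsk1 counts, so it is not a separate result.

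The trimming and amidating enzymes lay close to equality. Cpe, the carboxypeptidase that removes basic residues left by the convertases, had 562, 493 and 555 CPM in TESS neurons and 583, 525 and 501 CPM in CON neurons. Its fitted difference was -0.02 ± 0.11 (edgeR adjusted p = 0.948). Pam, the enzyme that amidates the carboxyl end of peptides, had 711, 852 and 755 CPM in TESS neurons and 710, 743 and 848 CPM in CON neurons, with a difference of -0.01 ± 0.12 (edgeR adjusted p = 0.979). For both genes the groups overlapped almost wholly. Scg5 encodes 7B2, the chaperone that PC2 needs to mature. It had 641, 562 and 747 CPM in TESS neurons, against 894, 750 and 657 CPM in CON neurons, and the difference of -0.26 ± 0.12 did not pass (edgeR adjusted p = 0.314).

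Among the granins, Scg2, the precursor of secretoneurin, had 375, 390 and 422 CPM in TESS neurons, against 493, 513 and 426 CPM in CON neurons. The groups did not overlap, but the highest TESS sample and the lowest CON sample were only a few CPM apart, and the difference of -0.30 ± 0.12 did not pass (edgeR adjusted p = 0.224). Scg3, a membrane-bound granin that holds chromogranin A on the granule membrane, had 177, 196 and 202 CPM in TESS neurons, against 142, 160 and 126 CPM in CON neurons. Scg3 was the only member besides Pcsk1 with a positive fitted difference in neurons, 0.40 ± 0.13, and it did not pass either (edgeR adjusted p = 0.149). Chga had 286, 209 and 330 CPM in TESS neurons and 324, 301 and 257 CPM in CON neurons. Chgb had 307, 269 and 406 CPM in TESS neurons and 398, 363 and 362 CPM in CON neurons. Both chromogranin genes overlapped between groups, with TESS 2 lowest of all 6 samples and TESS 3 highest in each, and their differences were -0.13 ± 0.14 and -0.23 ± 0.13 (edgeR adjusted p = 0.714 and 0.429). In all, the CPM of 4 of the 10 genes did not overlap between groups, against 19.6% of the 11686 genes tested.

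Resp18 had 1163, 792 and 987 CPM in TESS neurons, against 1557, 1644 and 1331 CPM in CON neurons. Each CON sample was above each TESS sample, and the counts were ample, 4343 UMIs in TESS neurons and 11159 in CON neurons. The means were 981 ± 185 CPM in TESS neurons and 1511 ± 161 CPM in CON neurons (SD, n = 3 each). Resp18 fell by 0.65 ± 0.13 on the log2 scale (edgeR adjusted p = 0.0158). The 10 genes together summed to 4891, 4379 and 5050 CPM in TESS neurons, against 5664, 5881 and 5194 CPM in CON neurons. Without Resp18 the sums were 3728, 3587 and 4062 CPM in TESS neurons and 4107, 4237 and 3863 CPM in CON neurons, and those groups overlapped.

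Within batch 3 (TESS 1 with CON 1 and CON 2), the difference was 0.75 for Pcsk1 and -0.49 for Resp18, and neither passed in edgeR (adjusted p = 0.758 for both), with 3 samples in the fit. Both calls were also lost without TESS 3 (adjusted p = 0.0514 for Pcsk1 and 0.0743 for Resp18 in edgeR) and without CON 2 (0.0590 and 0.0797). Markers of other cells also differed between the groups in neurons. The 5 listed endothelial markers summed to 53.8 to 65.5 CPM in TESS neurons and 80.9 to 127 CPM in CON neurons, with Ly6c1 at 0, and the 5 markers of oligodendrocyte precursors to 401 to 474 CPM in TESS neurons and 306 to 334 CPM in CON neurons. The part of such RNA in the results was not tested.

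The promoters of the called genes are shown because the pathway holds genes with a cAMP response element, the palindrome TGACGTCA bound by factors of the CREB and ATF family. The sequences are from RefSeq promoters on GRCm38.p6, on the gene's strand from 5′ to 3′. Capitals mark TGACGTCA and its shorter form TGACG, which was searched on both strands and lies within the palindrome. The stretches of Pcsk1 (chr13:75089737-75089825, plus strand) and Resp18 (chr1:75278447-75278535, minus strand) run from 120 to 32 bases before the start. Those of Scg2 (chr1:79440076-79440105, minus strand) and Chgb (chr2:132781559-132781588, plus strand) are 30 bases around the palindrome.
Pcsk1: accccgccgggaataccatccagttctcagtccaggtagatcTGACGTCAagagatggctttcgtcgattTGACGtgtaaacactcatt
Resp18: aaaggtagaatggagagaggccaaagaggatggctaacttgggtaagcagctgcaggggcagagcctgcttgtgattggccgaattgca
Scg2: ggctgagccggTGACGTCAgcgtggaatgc
Chgb: gggctgctccgTGACGTCAgggctgagcga

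Of the 10 genes, 9 have an entry in that promoter table, and Cpe is named only. TGACGTCA began 78 bases before the RefSeq start in Pcsk1, 68 in Scg2 and 72 in Chgb, so 3 of 9 genes held it, where 1.79% of all 32851 promoters of the same 300 bases and 2.03% of the 27025 genes in the table did. TGACG was in 7 of the 9 genes, against 20.8% of all promoters and 23.0% of all genes, and Pcsk1 held another copy 50 bases before its start outside the palindrome. The matches are a description of these letters. Among the 3 genes with the palindrome Pcsk1 rose, while Scg2 and Chgb had negative differences that did not pass. Resp18 and Pam held neither form in the window. By GENCODE vM21 (GRCm38), Pcsk1 lies at chr13:75089826-75134861, Pcsk2 at chr2:143546156-143816285, Chga at chr12:102554969-102565028 and Chgb at chr2:132781278-132795079, all on the plus strand. The GENCODE genes Scg2 and Chgb begin upstream of the RefSeq start used here, so their printed stretches lie inside the GENCODE bounds. On the minus strand lie Cpe at chr8:64592542-64693054, Pam at chr1:97795114-98095646, Scg2 at chr1:79434669-79440120, Scg3 at chr9:75643189-75684056, Scg5 at chr2:113776362-113829121 and Resp18 at chr1:75272199-75278415. Resp18 overlaps Gm28902 on the other strand, which had 56 UMIs in neurons, and Pcsk2 overlaps Pcsk2os1 and Pcsk2os2, with 292 and 59 UMIs. Whether the counting used the strand is not given in the sources used here, so reads of these pairs cannot be told apart.

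A split of neurons by transmitter asked whether the changes lay in one class. Subtypes were put in the class whose transmitter genes summed higher, which gave 3086 excitatory neurons in 20 subtypes and 2880 inhibitory neurons in 17. In excitatory neurons Pcsk1 had 78.6, 89.8 and 89.6 CPM in TESS samples, against 46.8, 46.4 and 44.3 CPM in CON samples. In inhibitory neurons it had 35.7, 53.8 and 45.6 CPM in TESS samples, against 21.7, 12.1 and 24.4 CPM in CON samples. The groups were apart in both classes. Pcsk1 rose by 0.88 ± 0.19 in excitatory neurons (edgeR adjusted p = 0.0207) and by 1.19 ± 0.27 in inhibitory neurons (edgeR adjusted p = 0.0496). The interaction, inhibitory minus excitatory, was 0.34 ± 0.28 (edgeR adjusted p = 0.922), so a difference between the classes was not shown.

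Resp18 moved almost alike in the classes. It had 1107, 757 and 978 CPM in TESS excitatory neurons, against 1470, 1594 and 1335 CPM in CON excitatory neurons, and fell by 0.66 ± 0.13 (edgeR adjusted p = 0.00730). It had 1244, 862 and 1014 CPM in TESS inhibitory neurons, against 1707, 1719 and 1363 CPM in CON inhibitory neurons, and fell by 0.64 ± 0.13 (edgeR adjusted p = 0.0315). The interaction was 0.03 ± 0.08 (edgeR adjusted p = 0.977). Scg3 was at 0.33 ± 0.16 in excitatory and 0.37 ± 0.15 in inhibitory neurons, and Scg2 at -0.28 ± 0.13 and -0.25 ± 0.13, none of them past the test. In each class 2 of 10 genes were called, against 0.94% of 9464 genes in excitatory and 0.229% of 10049 genes in inhibitory neurons. The subtypes Fxyd6 and V1/V2b/Slit2 expressed both sets of transmitter genes. With both counted as excitatory, Pcsk1 in inhibitory neurons was at 1.14 and no longer passed (edgeR adjusted p = 0.140), a setting chosen after seeing the data. In edgeR the Pcsk1 call in excitatory neurons was kept in 1 of the 6 fits that left out a sample, the one without TESS 1 (adjusted p of 0.0528 to 0.0785 in the other 5), and likewise in inhibitory neurons (0.0501 to 0.256 in the other 5). The Resp18 call was kept in all 6 fits in excitatory neurons, and it was lost in inhibitory neurons without TESS 2, TESS 3 or CON 2 (edgeR adjusted p = 0.0735, 0.263 and 0.210).

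With all nuclei of a sample summed, the same genes were called, 2 of 10 against 0.754% of 13391 genes. In such sums fewer cells of a type and less RNA per cell cannot be told apart. Pcsk1 had 32.5, 49.2 and 41.1 CPM in TESS samples, against 21.2, 18.8 and 22.3 CPM in CON samples, a rise of 0.94 ± 0.19 (edgeR adjusted p = 0.0324). Resp18 had 757, 572 and 647 CPM in TESS samples, against 1053, 1106 and 903 CPM in CON samples, a fall of 0.66 on the log2 scale (SE 0.13; edgeR adjusted p = 0.0293). The Pcsk1 call held in 1 of the 6 fits that left out a sample, the one without TESS 1 (edgeR adjusted p of 0.0627 to 0.123 in the other 5), and the Resp18 call was lost without TESS 3 or CON 2 (0.172 and 0.116).

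**Figure D2:**
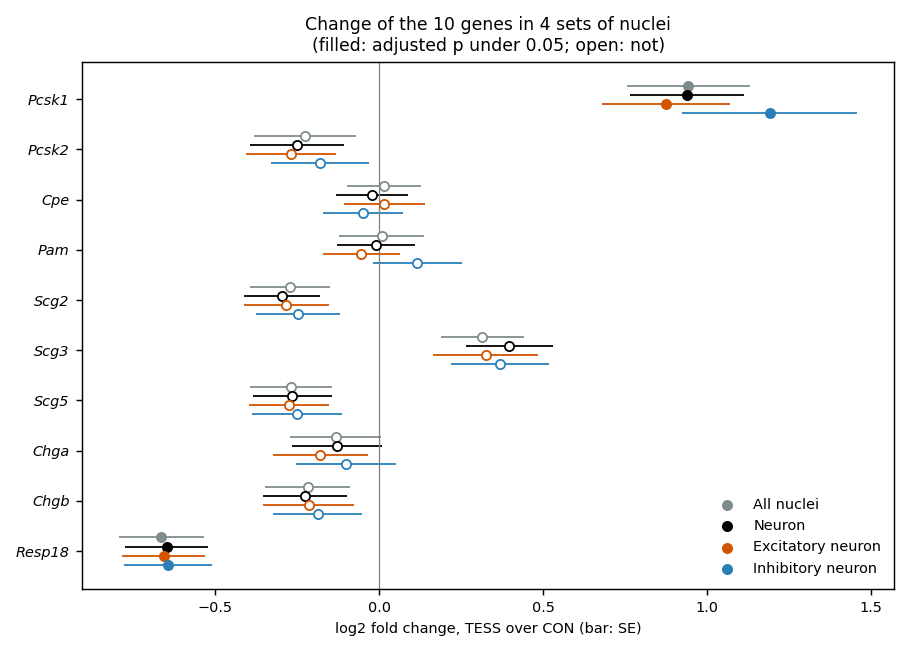
Fitted log2 fold change, TESS over CON, of the 10 genes in all nuclei, neurons, excitatory neurons and inhibitory neurons, with the SE as bars (n = 3 per group). Filled points passed an adjusted p of 0.05 in edgeR and open points did not: Pcsk1 and Resp18 are filled in all 4 sets, between 0.88 and 1.19 for Pcsk1 and close to -0.65 for Resp18.

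Since samples differed in their mix of subtypes, levels were also averaged at a fixed composition of the 24 subtypes with at least 10 nuclei in every sample. Pcsk1 was then at 66.4, 68.0 and 73.3 CPM in TESS samples, against 42.3, 33.5 and 39.7 CPM in CON samples, a log2 ratio of 0.85. Resp18 was at 1159, 851 and 1049 CPM in TESS samples, against 1699, 1709 and 1421 CPM in CON samples, a log2 ratio of -0.66. Both ratios stayed near those of the summed neurons. Scg3 had a ratio of 0.31 and Scg2 one of -0.07, so the Scg2 difference was smaller at equal composition. The exact two-sided permutation test gave p = 0.1 for Pcsk1, Resp18 and Scg3 (adjusted p = 0.333 over 10 genes), the smallest p that 3 against 3 samples allow.

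Counting neurons rather than molecules gave the same order of groups. After each neuron was thinned to 500 UMIs, which left out 92 TESS and 43 CON neurons, Pcsk1 was seen in 2.74%, 3.98% and 2.12% of TESS neurons, against 1.96%, 1.74% and 1.97% of CON neurons. Resp18 was seen in 37.4%, 30.8% and 36.3% of TESS neurons, against 47.1%, 50.6% and 44.4% of CON neurons. Scg2 was seen in 17.6% ± 1.52 of TESS neurons and 22.3% ± 1.87 of CON neurons, and Scg3 in 8.26% ± 0.604 of TESS neurons and 7.01% ± 0.831 of CON neurons (SD, n = 3 each). These 4 genes had groups that did not overlap, with an exact permutation p of 0.1 each (adjusted p = 0.25), which is the smallest possible. How many of all genes would separate in such shares was not counted. The Pcsk1 groups were barely apart, with 2.12% in TESS 3 and 1.97% in CON 3, and they overlapped after thinning to 300 UMIs. In a separate draw to 500 UMIs over all nuclei, which left out 5671 oligodendrocytes, 0.0316% of the 3166 others had a Pcsk1 UMI. Before thinning the median depth was 433 UMIs in all oligodendrocytes and 1688 in all neurons. Without thinning, Pcsk1 was seen in 8.87% ± 1.33 of TESS neurons and 5.88% ± 0.490 of CON neurons (SD, n = 3 each). Resp18 was seen in 64.6% ± 11.8 of TESS neurons and 81.2% ± 5.81 of CON neurons. Scg2 was then seen in 39.0% ± 4.66 of TESS neurons and 49.2% ± 7.01 of CON neurons. For Scg3 it was 24.9% ± 5.71 of TESS neurons and 24.1% ± 5.35 of CON neurons. The groups of Resp18, Scg2 and Scg3 overlapped without thinning. At 500 UMIs 9.49% of the 5900 neurons had no UMI of any of the 10 genes, and 28.7% had UMIs of exactly 2 of them. Of the 136 neurons with Pcsk1 in the draw over all nuclei, 42 (30.9%) also had Pcsk2, against 27.2% of the neurons without Pcsk1. Neurons of all samples were pooled for these shares, and their difference was not tested.

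The fall of Resp18 was spread over the neuron subtypes. In fits per subtype, Resp18 was lower in TESS in 24 of 24 subtypes, with a median difference of -0.69 (range -1.32 to -0.29) and an unadjusted p below 0.05 in 21. The share of all genes with such a p in the subtypes is not given here. These subtypes come from the same 6 samples and are not independent. Of the 120 genes tested in every subtype, 6 (5%) were lower in TESS in all 24 and 0 were higher in all 24. Of 189 fits of the 10 genes in subtypes, 1 passed within its subtype, where 0.0828% of all 31412 gene tests in subtypes did. It was Resp18 in the Pdyn subtype, which had 1765, 1047 and 1130 CPM in TESS samples, against 2497, 3194 and 2434 CPM in CON samples. There it fell by 1.10 ± 0.23 on the log2 scale (edgeR adjusted p = 0.0412, not adjusted across subtypes), and 0.346% of the 867 genes tested in that subtype were called. That call was lost without TESS 2, TESS 3, CON 2 or CON 3 (edgeR adjusted p = 0.0504, 0.1499, 0.170 and 0.0941). The Npy subtype had the lowest fitted value, -1.32 ± 0.33 (edgeR adjusted p = 0.113), with 3845, 1434 and 2030 CPM in TESS samples and 6006, 8663 and 4829 CPM in CON samples. The Npy subtype had 12 to 16 nuclei per sample.

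**Figure D3:**
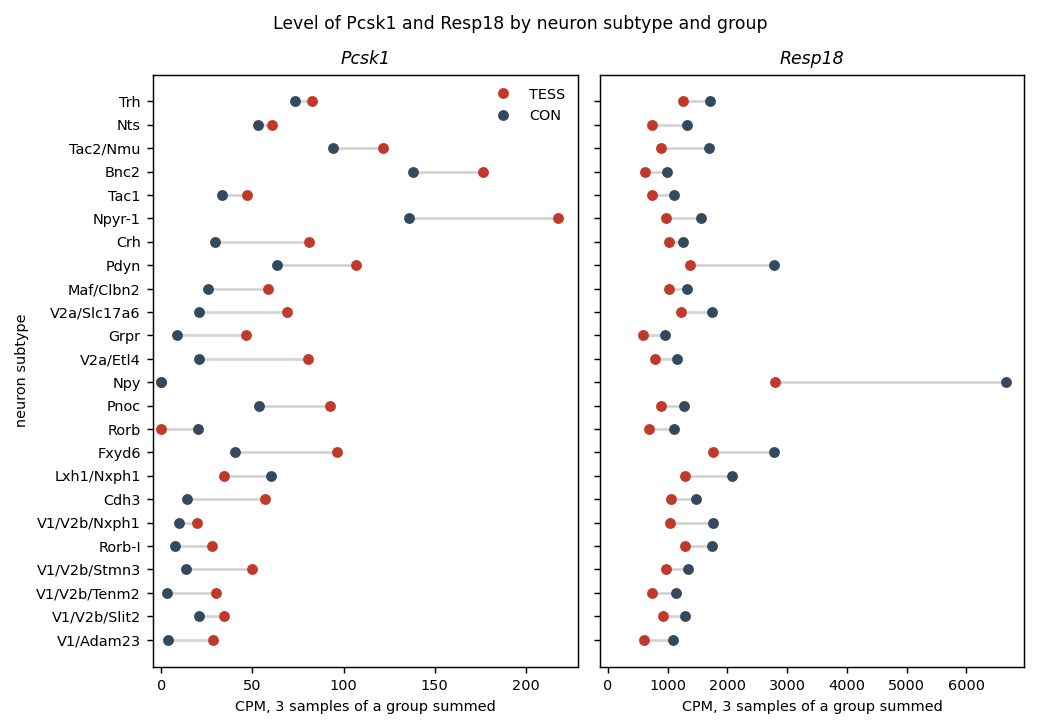
Level of Pcsk1 and Resp18 in 24 neuron subtypes, in CPM with the 3 samples of a group summed (TESS red, CON dark blue, joined by a line). Resp18 is lower in TESS in all 24 subtypes, and Pcsk1 is higher in TESS in 21. In Npy both Pcsk1 points lie at 0, and 1 hides the other.

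Pcsk1 was too sparse to be fitted in most subtypes. Only Fxyd6 gave a fit, 1.20 ± 0.53, which did not pass (edgeR adjusted p = 0.696). With samples of a group summed, Pcsk1 was higher in TESS in 21 of the 24 subtypes. The exceptions were Npy, with no UMI in either group, Rorb, with 0 UMIs in TESS and 3 in CON, and Lxh1/Nxph1. In the subtype with the highest level, Npyr-1, it had 273, 170 and 175 CPM in TESS samples, against 156, 159 and 89.2 CPM in CON samples, from 21 and 34 UMIs. Of the other genes, Scg5 was negative in 22 of 24 subtypes fitted (median -0.32), Chgb in 16 of 20 and Pcsk2 in 18 of 23, while Scg3 was positive in 9 of 11 and Pam in 17 of 24. None of these fits passed, and the subtypes come from the same 6 samples. How many of all genes reach such counts of equal sign was not counted.

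Levels across subtypes were then described without a test, since clusters rest on the expression of the same nuclei. For each of the 10 genes, all 23 pairs of neighbours in the order of the 24 subtypes overlapped in their range over the 6 samples, so only distant places in an order are apart. The highest and lowest levels that follow are of these 24, and the other 14 subtypes, with fewer than 10 nuclei in at least 1 sample, are named in part where they lay higher or lower. The convertases were both high in Tac2/Nmu, and the other subtypes at the top differed. Pcsk1 was highest in Npyr-1 (159 CPM over all samples), Bnc2 (151 CPM, from 15 UMIs) and Tac2/Nmu (102 CPM), all excitatory, against a median of 39.1 CPM. In Npy neurons it had 0 UMIs, which allows up to 25.7 CPM (3 counts; counting error only). CSF-N, outside the 24, also had 0 UMIs, which allows up to 59.0 CPM. Pcsk2 was highest in Nts (1749 CPM), Tac2/Nmu (1527 CPM) and the inhibitory subtype Rorb (1373 CPM), and lowest in Pdyn (268 CPM). Outside the 24, Rora/Adarb2 had 2005 CPM of Pcsk2, and Spp1 and CSF-N, with 228 and 98.3 CPM, lay below Pdyn. Rorb thus had high Pcsk2 with 3 UMIs of Pcsk1, a count too small to rank Rorb for Pcsk1. Pdyn neurons, which make the dynorphin precursor, had the lowest Pcsk2 of the 24.

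Cpe and the chaperone gene Scg5 varied less. Cpe ranged from 395 CPM in Tac2/Nmu to 754 CPM in Pdyn, with Rorb and Fxyd6 next to Pdyn at 742 and 736 CPM, a spread of 1.91-fold over the 24 subtypes. Cpe was lower in 3 of the others, at 145 CPM in MN, 326 CPM in Grp and 338 CPM in Cck/Cpne4. Scg5 ranged from 534 CPM in V1/Adam23 to 1212 CPM in Nts, with Lxh1/Nxph1 (946 CPM) and Npy (927 CPM) next, a spread of 2.27-fold over the 24, with Spp1 (460 CPM) and MN (118 CPM) below it. Pam was more selective. It reached 2073 CPM in Tac2/Nmu, 1817 CPM in Npyr-1 and 1556 CPM in Tac1, the excitatory subtype named for the substance P precursor, and was lowest in Rorb at 376 CPM. Outside the 24 it was at 2190 CPM in Tac2/Tacr3, and at 349, 256 and 118 CPM in Crabp1, Spp1 and CSF-N.

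The granin genes differed in pattern. Scg2 had the widest spread over the 24 subtypes among the genes whose lowest level was above 0, 15.8-fold. Pcsk1, at 0 in Npy, had no such ratio. Scg2 had 1713 CPM in Pnoc, 1325 CPM in Rorb and 1160 CPM in Tac1, against 108 CPM in the ventral inhibitory subtype V1/Adam23. Outside the 24 it was lower in CSF-N (78.6 CPM) and MN (53.5 CPM). Chgb was likewise highest in Rorb (877 CPM), Pnoc (778 CPM) and Cdh3 (641 CPM), and lowest in V1/V2b/Stmn3 (132 CPM). Outside the 24, Chgb was far higher in Tac2/Tacr3 (2390 CPM) and Cck/Cpne4 (2224 CPM), and it was at 45.9 CPM in MN. Chga ran the other way from Scg2 in Pnoc and V1/Adam23. Among the 24 it was highest in Maf/Clbn2 (425 CPM), V2a/Etl4 (383 CPM) and V1/Adam23 (362 CPM), and lowest in Pnoc (95.4 CPM), and outside them it was higher still in Rora/Parp8 (634 CPM), Spp1 (582 CPM) and Npyr-2 (473 CPM) and lower in Crabp1 (83.4 CPM). Scg3 was highest in Pnoc (305 CPM), Rorb (294 CPM) and Npyr-1 (272 CPM), and lowest in Trh (54.5 CPM, from 10 UMIs). Resp18 stood out in Npy neurons at 5218 CPM, followed by Fxyd6 (2305 CPM) and Pdyn (2201 CPM), against a median of 1219 CPM and a lowest level of 838 CPM in Grpr. In the motor neuron cluster MN, which had fewer than 10 nuclei in 1 sample, Resp18 was at 225 CPM, and it was at 391 CPM in Cck/Cpne4 and 652 CPM in Crabp1, all below Grpr.

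**Figure D4:**
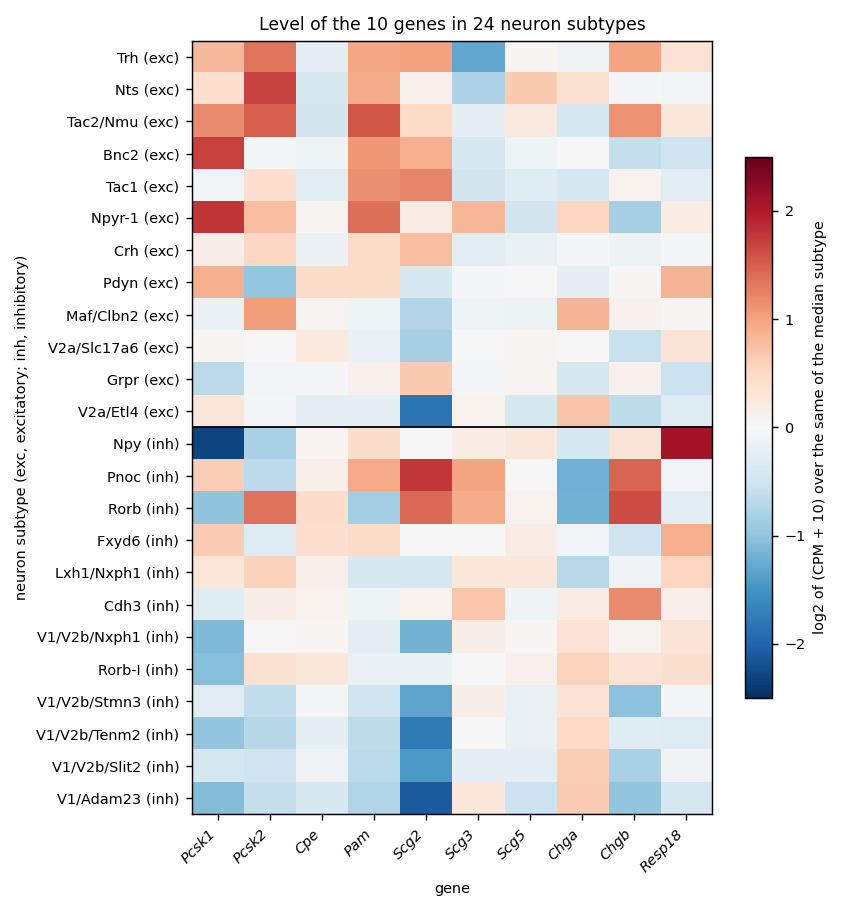
Level of the 10 genes in 24 neuron subtypes, as log2 of (CPM + 10) over the same value of the median subtype, with red above and blue below it. Subtypes run from high to low neuropeptide precursor level within the excitatory (above the line) and inhibitory (below it) classes. Pam and Pcsk1 are red in the upper excitatory rows, Scg2 is blue in most V1 and V2b rows, and the row Npy has the highest Resp18.

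Excitatory neurons had 2.05 times the Pcsk1 level of inhibitory neurons, 65.9 ± 22.4 CPM in excitatory and 32.2 ± 15.7 CPM in inhibitory neurons (SD, n = 6 samples). The ratio was 1.75 for Pcsk2, 1.68 for Pam, 1.49 for Scg2 and 1.45 for Chgb, and for these 5 genes the excitatory level was higher in 6 of 6 samples. With Fxyd6 and V1/V2b/Slit2 counted as inhibitory, Scg3 and Resp18 went the other way, at 0.768 and 0.916 times the inhibitory level. For both genes the inhibitory level was higher in 6 of 6 samples. Fxyd6, with 366 of the 2880 inhibitory nuclei, expressed both sets of transmitter genes and was among the subtypes highest in Resp18. No ratio here was computed with Fxyd6 counted as excitatory, so the Resp18 order may depend on that choice. Cpe, Chga and Scg5 were close to equal, at 0.967, 0.971 and 1.06. The summed neuropeptide precursor genes were 3.13 times as high in excitatory neurons, and the sum of the 10 genes was 1.20 times as high.

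Across the 26 subtypes with at least 100 nuclei the members did not rise and fall as one. Pearson's r of log2(CPM + 10) over the 45 pairs had a median of 0.12 and ran from -0.45 for Scg2 with Chga to 0.74 for Pcsk1 with Pam. Cpe with Resp18 had r = 0.70, and Pcsk1 with Pcsk2 had r = 0.32 (0.45 over the 37 subtypes with at least 50 nuclei). With the summed precursor genes r was 0.77 for Pam, 0.70 for Scg2, 0.61 for Pcsk1 and 0.59 for both Pcsk2 and Chgb, and it was negative for Chga (-0.39), Scg3 (-0.34) and Cpe (-0.14). Over the 37 subtypes with at least 50 nuclei, r with the precursors was 0.37 for Pcsk1 and 0.04 for Cpe, and r was -0.26 for Scg2 with Chga and 0.58 for Pcsk1 with Pam. These points share their libraries, and sparse subtypes are noisy, so the values only describe the table. Of 7429 other genes, those most like Pcsk1 over the same 26 subtypes were Adcyap1, the precursor of PACAP (r = 0.74), Cntnap5c (0.74), Enox1, Numa1 and Kdm6a (each 0.70). Those most like Pcsk2 were Atp10a (0.84), Rtn4rl1 (0.83), Unc13b, Spock1 (each 0.80) and Peak1 (0.79). The sum of the 10 genes was most like Camk2a (0.89), Rims3, Tsix (each 0.88), Atp1b2 and Camkv (each 0.87).

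Outside neurons the genes differed in level, and values are set beside those of the neuron markers in the same nuclei. Astrocytes had 1015 CPM of Cpe and 389 CPM of Scg3, 189% and 242% of the level in neurons. Astrocyte samples ranged from 845 to 1140 CPM for Cpe and from 340 to 432 CPM for Scg3, above all 6 neuron samples for both genes. Oligodendrocyte precursors (OPC) had 80.8% of the neuron level for Scg3, 75.1% for Cpe, 53.7% for Scg5 and 44.8% for Pcsk2. Of these, Scg5 and Pcsk2 lay below the neuron marker Snap25, which was at 56.1% in OPC, so that only Scg3 and Cpe were above all 5 neuron markers there. Endothelial nuclei had 97.0% for Cpe and 44.5% for Pam. After thinning to 500 UMIs, Cpe was seen in 37.4% of 788 astrocytes (95% interval 34.0% to 40.9%, exact binomial, counting error only), against 22.4% of 5900 neurons.

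Resp18 and Pcsk1 behaved differently. Resp18 lay between 7.12% and 10.0% of the neuron level in all 5 other cell types, and Pcsk1 between 0% and 9.28%. The neuron markers Rbfox3, Syt1, Snhg11 and Meg3, measured the same way, lay between 2.76% and 14.8% of their neuron level in those types, and Snap25 between 30.6% and 70.6%. Snap25 was the highest of these markers in each type, and Resp18 and Pcsk1 lay below it. In oligodendrocytes Resp18 was at 8.93%, above Rbfox3 (7.85%), Snhg11 (6.96%), Syt1 (5.62%) and Meg3 (3.79%). In each of the other types a marker besides Snap25 also lay above Resp18. The part of stray RNA in the levels of Resp18 and Pcsk1 was not tested. Pcsk1 had 14 UMIs in all in the 5 types and 0 in OPC, which allows up to 6.61 CPM there (3 counts). Median depth was 1688 UMIs in neurons and 343 in microglia, the shallowest type.

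**Figure D5:**
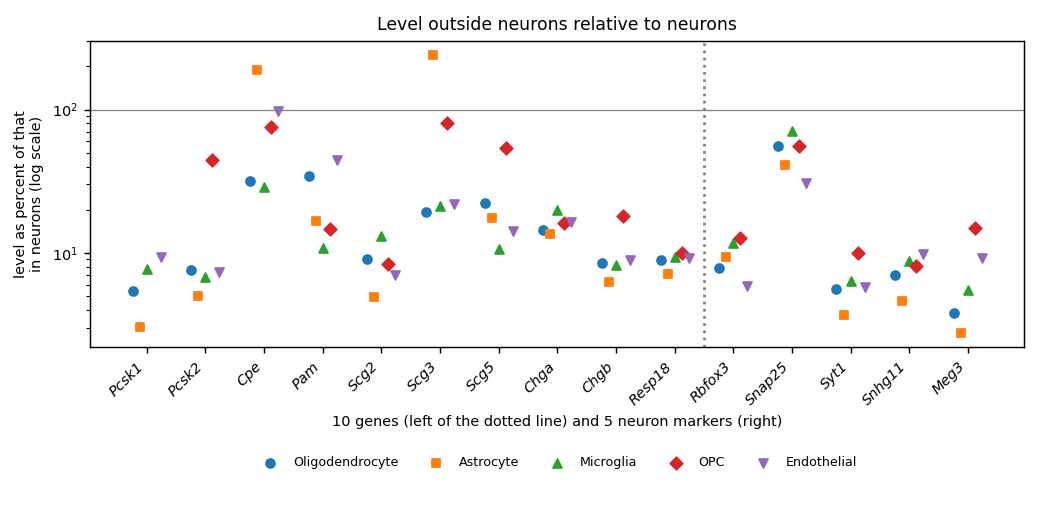
Level of the 10 genes and of 5 neuron markers in 5 other cell types, as percent of the level in neurons on a log scale, all 6 samples summed. Cpe and Scg3 in astrocytes lie above 100%, while Resp18 lies between 7.12% and 10.0% in every type. Pcsk1 in OPC is at 0 and not drawn.

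Between groups none of the members fitted in the 5 other cell types was called. That is 0 of 9 genes in oligodendrocytes, 0 of 5 in astrocytes, 0 of 2 in microglia, 0 of 3 in OPC and 0 of 2 in endothelial nuclei, where 1.65%, 0.976%, 0.6%, 0.155% and 1.54% of all genes tested were called in edgeR. Of these 21 fits, 5 had an unadjusted p below 0.05. Over all genes tested, 1268 of 8796 had such a p in oligodendrocytes, 238 of 2049 in astrocytes and 298 of 2501 in microglia. In OPC it was 115 of 1289 genes, and in endothelial nuclei 89 of 583. Pcsk1 passed the count filter in none of the 5 types. Resp18 passed the filter in 3 of them. In oligodendrocytes it had 86.6, 75.7 and 97.9 CPM in TESS samples, against 128, 133 and 150 CPM in CON samples, a difference of -0.72 ± 0.19 (edgeR adjusted p = 0.0509). It was at -0.99 ± 0.43 in astrocytes and -1.24 ± 0.40 in microglia (edgeR adjusted p = 0.329 and 0.144). The 5 neuron markers summed to 1331 to 2374 CPM in TESS oligodendrocytes and 1104 to 1464 CPM in CON oligodendrocytes, values that stand beside the Resp18 values without a test. The interaction between neurons and all other nuclei was 0.14 ± 0.21 for Resp18, -0.45 ± 0.21 for Pcsk2 and -0.53 ± 0.23 for Scg2 (edgeR adjusted p = 0.932, 0.644 and 0.599). No member passed that interaction, where 0.0875% of genes did, nor the one between transmitter classes, where 0.0556% did.

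The other genes of the pathway were read from a list of 43, which includes further convertases, granule membrane proteins and the docking and release machinery of dense-core granules. Of 40 tested in neurons, 0 rose and 1 fell, with a median difference of -0.01, against -0.01 for all genes. The one that fell was Baiap3, a Munc13-related protein that acts in dense-core vesicle traffic. It had 86.4, 81.0 and 92.4 CPM in TESS neurons, against 128, 136 and 123 CPM in CON neurons, and fell by 0.60 ± 0.14 on the log2 scale (edgeR adjusted p = 0.0294). The Baiap3 call was kept without CON 1 and lost without any 1 of the other 5 samples (edgeR adjusted p of 0.0587 to 0.152). The differences of the list ran from -0.67 to 0.76.

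The substrates of the pathway were read from a list of 41 neuropeptide precursor genes. Of 24 tested in neurons, 22 had a negative difference, 7 fell and 0 rose, where 1.04% of all 11686 genes were called, and their median was -0.65, against -0.01 for all genes. The list was chosen with earlier results of these data known, so its direction is no independent evidence. In edgeR 3 of them were called without TESS 2, 4 without TESS 3, 3 without CON 2 and 2 without CON 3. Of these 7, Nts, the neurotensin precursor, had the largest fall (-1.23 ± 0.16, edgeR adjusted p = 0.000641), with 78.6, 102 and 92.4 CPM in TESS neurons, against 205, 256 and 166 CPM in CON neurons. The others that fell were Cck, Gal, Grp, Nppc, Sst and Tac2, which encode cholecystokinin, galanin, gastrin-releasing peptide, C-type natriuretic peptide, somatostatin and neurokinin B. All precursors summed to 2573, 1934 and 2558 CPM in TESS neurons, against 3275, 3802 and 3556 CPM in CON neurons. Pcsk1 was thus higher in the same TESS samples in which the summed precursors and Resp18 were lower.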

How the data were processed

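Nuclei of 3 TESS and 3 CON samples were measured by single-nucleus RNA sequencing (10x version 2 chemistry, 5000 nuclei loaded). The authors deposited whole-number UMI counts for 19954 genes in 18514 nuclei, made with Cell Ranger 2.2.0, with Seurat 3 and the builds mm10 and GRCm38 also listed, per the submitters' processing notes. The cell types, subtypes, batch numbers and the mitochondrial fraction per nucleus (at most 4.92% of UMIs) are as deposited. The steps that kept nuclei, the treatment of doublets, the use of intronic reads and of strand, and the meaning of a batch are not given in the sources used. No nucleus was left out of the sums or called a doublet here.

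Counts were summed per sample and class and tested with edgeR 4.0.16 in R 4.3.3 (TMM factors, filterByExpr with a minimum count of 10, quasi-likelihood F test, no batch term). P-values were Benjamini-Hochberg adjusted over all genes of the class. Differences are TESS over CON on the log2 scale, with an SE obtained as the size of the difference over the root of F. Interactions were fitted over both classes with the sample as a block. A subtype was excitatory if Slc17a6, Slc17a7 and Slc17a8 summed higher than Gad1, Gad2, Slc32a1 and Slc6a5, inhibitory otherwise, and MN was cholinergic. Intervals and limits cover counting error only. Levels and shares were computed in Python 3.11.15 with exact two-sided permutation tests (scipy 1.17.1). The edgeR step was tested on simulated counts. Total counts and depths stand in the report. All 10 genes are described, and beyond them the members of the other lists that were called in neurons and the 5 genes most alike are named. DESeq2 1.42.0, other factors and filters, batch, replicate block and leaving out each sample were the alternatives. Same-numbered TESS and CON samples did not deviate together.

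The genes, lists, tests and alternatives were chosen with earlier results of these data known. Protein sequences were not used here.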

Additional observations from a re-analysis of the deposited data

How the results depend on the processing

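The 2 calls in each of neurons, all nuclei, excitatory and inhibitory neurons became 0 with batch as a term and 0 with only batch 3, fits with few samples per batch. In neurons edgeR then gave Pcsk1 0.75 and Resp18 -0.49 (adjusted p = 0.734 for both with the batch term). DESeq2 called 1 gene in excitatory and 1 in inhibitory neurons, and its adjusted p for Pcsk1 was not given there. In inhibitory neurons 1 was called with Fxyd6 and V1/V2b/Slit2 counted as excitatory, chosen after seeing the data. In the other major types 1 member was called with upper-quartile factors and 1 without a filter, against 0, and in subtypes 4 were called without a filter and 4 with the replicate block, against 1.

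Leaving out 1 sample gave 0 to 2 calls in neurons (0 without TESS 3 or CON 2), 0 to 2 in all nuclei, 1 to 2 in excitatory neurons, 0 to 2 in inhibitory neurons and 0 to 3 in subtypes. The difference in neurons ran from 0.81 to 1.07 for Pcsk1 and from -0.79 to -0.53 for Resp18. Signs turned for small differences: Cpe (-0.066 to 0.014), Pam (-0.11 to 0.069) and Chga (-0.26 to 0.017) in neurons, Scg2 at equal composition (-0.16 to 0.018), and the Resp18 interactions of transmitter class (-0.022 to 0.063) and of neurons with other nuclei (-0.032 to 0.24).

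Over all genes in neurons 122 were called, 335 without a filter, 0 with the batch term, 0 with only batch 3 and 19 to 105 without 1 sample. In all nuclei 101 were called, 154 with DESeq2, 250 without a filter, 0 in both batch fits and 18 to 118 without 1 sample. The pairing check found r of -0.054, -0.0015 and -0.021 between same-numbered samples, so no pairing by number was seen. TESS 1 and CON 1 also share batch 3. With the replicate block 169 genes were called in neurons and Pcsk1 stood at 0.94 (edgeR adjusted p = 0.00355). Of the neuropeptide precursors 7 were called in neurons and 0 in both batch fits. Of the single-gene values, 317 kept direction and side of the threshold, 55 were no longer past it, 5 came past it and 8 changed sign. Thinned to 300 UMIs, the Pcsk1 shares overlapped between groups.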
